A study of Mus musculus with 6 samples.

Results

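The genes described here encode the membrane proteins that carry methylmercury (MeHg) into cells as a cysteine complex and out of cells as a glutathione complex. They are Slc7a5, Slc7a8 and Slc3a2 of amino acid transport system L, and the pump genes Abcc1, Abcc4 and Abcc5, chosen by name for these functions. All 6 were found in the count table, 1 row each among 56748 genes, and all 6 were among the 16859 genes with enough counts to be tested.

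MeHg harms the developing nervous system. In blood and tissue it binds to thiols, and its complex with cysteine resembles the amino acid methionine. System L, which exchanges large neutral amino acids across the plasma membrane and the blood-brain barrier, accepts that complex. Inside the cell MeHg binds to glutathione, and pumps of the ABCC family, also called multidrug resistance-associated proteins, use ATP to export glutathione conjugates and other organic anions.

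RNA was sequenced from the whole cerebellum of 6 adult C57BL/6J mice aged 90 to 120 days. The dams of 3 mice received 0.2 ppm MeHg in their drinking water during gestation, up to birth, and the dams of the 3 control mice received water with 0 ppm. The exposure had thus ended long before sampling, and it was given to the mother, not to the animal that was sequenced. The labels give 2 females and 1 male to each group and name no dam or litter, so p-values measure the spread between these 6 animals, some of which may be litter mates.

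The total count ran from 14116088 to 20303833 per library. Control replicate 2 carries a female label but had the Xist and Y-linked RNA of a male. Values without it are therefore given beside the results of the 6 genes. They are also given for the related lists, and their named genes, whose call or direction it changes. Markers of cerebellar neurons were present in every library: the summed level of 8 granule cell markers was 6019 to 6489 CPM (counts relative to the TMM-scaled library size) in controls and 4406 to 5108 CPM in MeHg, and that of 6 Purkinje cell markers was 6937 to 7749 and 5320 to 6933 CPM. All 10 choroid plexus markers were also detected, at a summed 152 to 3104 CPM in controls and 2573 to 10170.5 CPM in MeHg. MeHg replicate 2 stood apart in 6 tested markers of brainstem monoamine and cholinergic neurons, which summed to 214 CPM there and to 15.9 to 34.6 CPM in the other libraries, and it also had the highest oligodendrocyte (7883 CPM) and red blood cell (182 CPM) sums. The 6 ependymal markers were higher in every MeHg library than in any control, at a summed 38.0 to 61.3 against 16.6 to 24.7 CPM. Of all tested genes, 13.9% lay above every control in every MeHg library. By edgeR at an adjusted p under 0.05, 2 of the 6 were called as higher, where 0.575% of all tested genes were. In bulk tissue, fewer cells of a type cannot be told apart from less RNA per cell.

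None of the 6 transporter genes passed the test between MeHg and control, by edgeR's quasi-likelihood test at an adjusted p under 0.05, at which 2.36% of all tested genes were called, 0.575% as higher and 1.79% as lower in MeHg. At an unadjusted p under 0.05 there were 2 of 6, Abcc1 and Abcc5, both lower in MeHg, where 24.5% of all tested genes had such a p and 12.7% had one and were lower. DESeq2 called 1 of the 6, Abcc5, beside 1394 of all 16859 tested genes. With limma-voom 0 of the 6 were called, beside 358 of all tested genes. The median log2 fold change of the 6 genes was 0.01, beside 0.0062 over all tested genes. In Abcc1 and Abcc5 all MeHg libraries lay below all controls, which also held for 15.5% of all tested genes. In either direction, 29.4% of tested genes had groups that did not overlap, beside 2 of these 6. A count of 2 among 6 is too small to set apart from those shares, and no claim about the group rests on it.

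**Figure D1:**
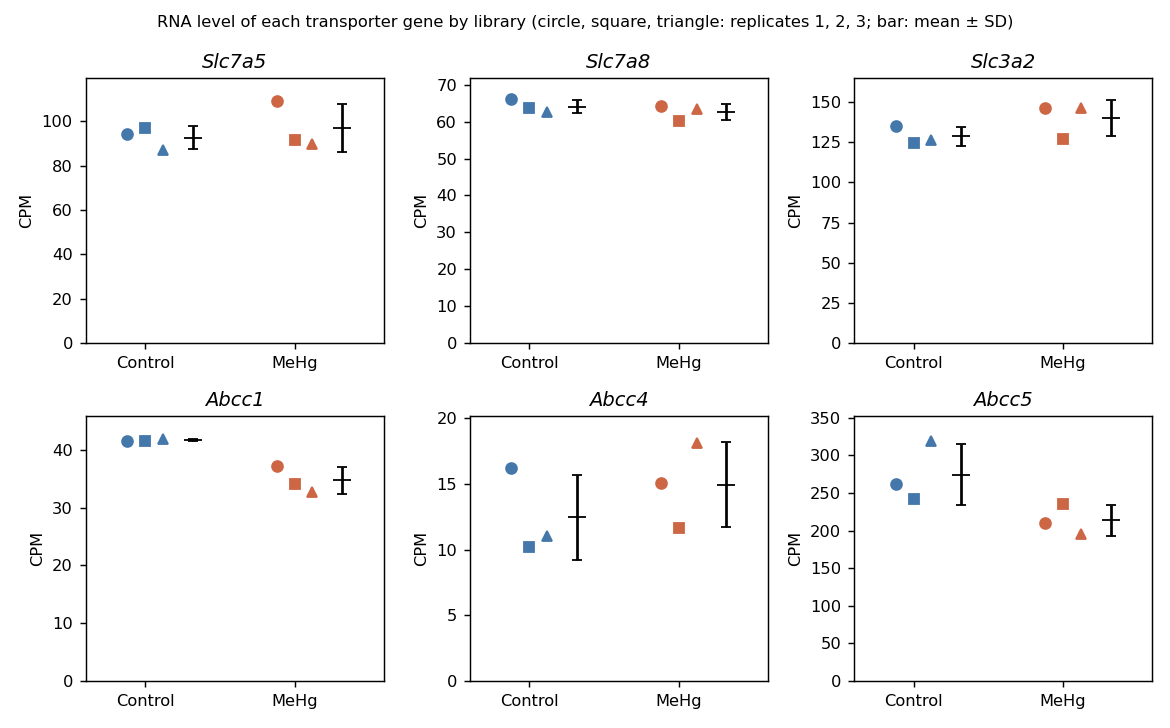
RNA level in CPM (vertical axes, from 0) of each of the 6 transporter genes in the 3 control and 3 MeHg libraries; circles, squares and triangles are replicates 1, 2 and 3, and bars show the mean and SD. In Abcc1 and Abcc5 every MeHg library lies below every control, and in the other 4 genes the groups overlap.

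Slc7a5 encodes LAT1, the light chain of system L that is enriched in the endothelium of the blood-brain barrier and that takes up leucine, phenylalanine, methionine and thyroid hormone (ENSMUSG00000040010, chromosome 8, 122607889 to 122634433, minus strand, mm39, as in the deposited table). Its level was 94.1, 97.0 and 86.9 CPM in control replicates 1, 2 and 3 and 109.3, 91.3 and 89.9 CPM in MeHg replicates 1, 2 and 3. MeHg replicate 1 was the highest library, and the other MeHg libraries lay within the range of the controls. The group means were 92.7 ± 5.22 CPM (SD, n = 3) in controls and 96.8 ± 10.8 CPM in MeHg. MeHg against control gave a log2 fold change of 0.06 ± 0.09 (SE, 95% interval -0.13 to 0.26, adjusted p = 0.698). Without MeHg replicate 1 it was -0.03, so its sign rested on that library, and without control replicate 2 it was 0.10 ± 0.10 (adjusted p = 0.600).

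Slc7a8 encodes LAT2, a light chain with a broader choice of neutral amino acids, small ones included (ENSMUSG00000022180, chromosome 14, 54959666 to 55019403, minus strand). It was the steadiest of the 3 uptake genes, at 66.1, 63.6 and 62.7 CPM in control replicates 1 to 3 and 64.2, 60.1 and 63.4 CPM in MeHg replicates 1 to 3. The lowest value was that of MeHg replicate 2, and the groups overlapped. The means were 64.1 ± 1.80 CPM (SD, n = 3) and 62.6 ± 2.18 CPM. The log2 fold change was -0.04 ± 0.06 (SE, 95% interval -0.18 to 0.11, adjusted p = 0.779). It was 0.0025 with upper-quartile scaling and 0.0014 without MeHg replicate 2, so no direction can be given. Without control replicate 2 it was -0.04 (adjusted p = 0.764).

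Slc3a2 encodes CD98 heavy chain (4F2hc), the single-pass glycoprotein that both light chains need to reach the cell surface (ENSMUSG00000010095, chromosome 19, 8684246 to 8700733, minus strand). Its level was 135.3, 124.6 and 126.3 CPM in control replicates 1 to 3 and 146.5, 127.1 and 146.5 CPM in MeHg replicates 1 to 3. MeHg replicates 1 and 3 were higher than every control, and MeHg replicate 2 lay among the controls. The means were 128.7 ± 5.79 CPM (SD, n = 3) and 140.0 ± 11.2 CPM. The fitted log2 fold change was 0.12 ± 0.07 (SE, 95% interval -0.04 to 0.28, adjusted p = 0.333). Without MeHg replicate 2 it was 0.19 ± 0.06, which did not pass either (adjusted p = 0.082). Without control replicate 2 it was 0.10 ± 0.08 (adjusted p = 0.523). Slc3a2 overlaps the opposite-strand non-coding gene Snhg1 by 415 bases, and the sources used here do not state whether reads were counted by strand.

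The deposited FPKM values (fragments relative to gene length and to the library total) allow levels to be compared between genes. Slc3a2 was at 34.3 ± 1.61 FPKM (SD, n = 3) in controls, Slc7a5 at 23.5 ± 1.30 FPKM and Slc7a8 at 12.04 ± 0.356 FPKM. The ranges over the controls did not overlap between any of these 3 genes. Per deposited length, Slc7a5 RNA was thus 1.87 to 2.06 times that of Slc7a8 in the controls and 1.91 to 2.30 times in the MeHg libraries, ranges that overlap. With the lengths of the canonical GENCODE transcripts, the control means were 24.8 and 14.5 FPKM, a smaller ratio. The light-chain shares that follow also use the deposited lengths. The heavy chain has several light-chain partners: Slc7a5, Slc7a6, Slc7a7, Slc7a8, the small neutral amino acid exchanger Slc7a10 and the cystine-glutamate exchanger Slc7a11. Of the summed FPKM of these 6 light chains, Slc7a5 made up 36.1% ± 1.71 (SD, n = 3) in controls and 35.8% ± 2.46 in MeHg. Slc7a10 had a share of similar size, at 33.5% ± 1.88 in controls and 36.0% ± 1.57 in MeHg, with overlapping ranges. Slc7a8 made up 18.4 to 18.5% in the controls and 16.7 to 17.5% in the MeHg libraries. That share was lower in every MeHg library, while the Slc7a8 level itself overlapped between the groups. Slc3a2 stood at 0.512 to 0.538 times the sum of its light chains in controls and 0.520 to 0.574 times in MeHg, with overlapping ranges.

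Abcc5 encodes MRP5, an organic anion pump known for the export of cyclic nucleotides and glutathione conjugates (ENSMUSG00000022822, chromosome 16, 20150053 to 20245144, minus strand). It was the most abundant of the pump genes, at 261.6, 242.6 and 319.5 CPM in control replicates 1, 2 and 3 and 209.5, 235.9 and 196.0 CPM in MeHg replicates 1, 2 and 3. Every MeHg library was below every control, but the gap between control replicate 2 and MeHg replicate 2 was only 0.04 on the log2 scale, and control replicate 3 stood above the rest. The means were 274.6 ± 40.1 CPM (SD, n = 3) and 213.8 ± 20.3 CPM, a change of -22.1% in the fitted ratio. The log2 fold change was -0.36 ± 0.11 (SE, 95% interval -0.61 to -0.11), with an unadjusted p of 0.00911 that missed the threshold after adjustment over all genes (adjusted p = 0.0969).

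The Abcc5 call depended on the fit and on MeHg replicate 2, the library with the high brainstem markers, whose part in the result was not tested beyond leaving it out. It passed with DESeq2 (adjusted p = 0.0189), with no filter on low counts (0.000568), with sex by label as a term (0.0406), without MeHg replicate 2 (0.0421) and when both libraries numbered 2 were left out (0.0113), and the adjusted p over all alternatives ran from 0.000568 to 0.311. The sex term takes control replicate 2 as female, against its RNA. The log2 fold change was -0.44 without control replicate 2, the library that goes against its sex label (adjusted p = 0.0811), and -0.24 without control replicate 3 (adjusted p = 0.311). It was negative in all 18 alternatives.

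Abcc1 encodes MRP1, the pump first linked to glutathione-dependent drug export and, in the brain, found in glia and at the blood-cerebrospinal fluid barrier (ENSMUSG00000023088, chromosome 16, 14179422 to 14293601, plus strand). Its level was 41.6, 41.5 and 41.9 CPM in control replicates 1 to 3 and 37.2, 34.2 and 32.7 CPM in MeHg replicates 1 to 3. All MeHg libraries were below all controls, which lay almost on top of each other. The control SD was 0.498% of their mean, less than the 4.14% that counting alone gives at the lowest control count of 583, so the closeness of the controls is finer than this depth can resolve. The means were 41.7 ± 0.208 CPM (SD, n = 3) and 34.7 ± 2.31 CPM, a change of -16.7% in the fitted ratio. In the fit the log2 fold change was -0.26 ± 0.08 (SE, 95% interval -0.45 to -0.08), with an unadjusted p of 0.00933 and an adjusted p of 0.0982. It was -0.27 without control replicate 2, and the adjusted p over all alternatives ran from 0.091 to 0.522.

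Abcc1 and Abcc5 are long genes in the deposited table, at 15092 and 10681 bases. Their canonical GENCODE transcripts have 6905 and 5859 bases, and deciles by canonical length were not computed. By deposited length, both fall in the decile of the longest tested genes. In that decile the median log2 fold change was -0.14, and 41.1% of genes had every MeHg library below every control. In the decile of the shortest genes these values were 0.10 and 6.88%. With an offset per library for gene length, the log2 fold change of Abcc1 was -0.09 ± 0.08 (adjusted p = 0.522) and that of Abcc5 was -0.25 ± 0.10 (unadjusted p = 0.0308, adjusted p = 0.192). Both differences were smaller with the offset. It removes the trend of each library with gene length, so a move toward 0 was built in for genes of this decile. The part of gene length in the 2 differences was not tested. Of 8 granule cell markers, 5 were called lower and 0 higher, with a median log2 fold change of -0.41, where 1.79% of all tested genes were called lower. Neurod1 (adjusted p = 0.134), Cbln3 (0.0733) and Cbln1 (0.241) did not pass, and the groups overlapped in Cbln1. With the gene length offset 0 of the 8 were called, but so were 0 of all tested genes. Without control replicate 2 there were 3 of the 8, beside 220 of all 17108 genes tested there. The part of granule cell content in the lower pump levels was not tested.

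**Figure D2:**
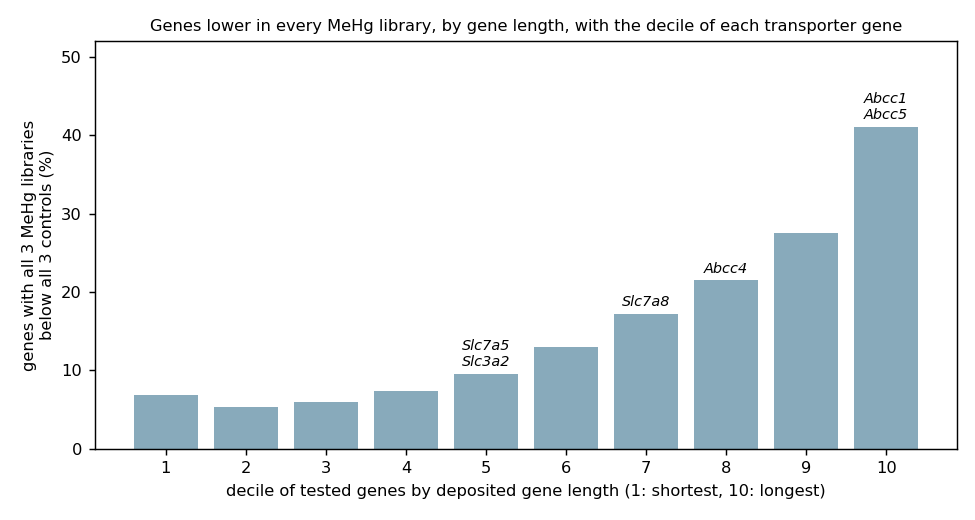
Share of tested genes whose 3 MeHg libraries all lie below the 3 controls (vertical axis, percent) in each decile of deposited gene length (horizontal axis). The share goes from 6.88% in the shortest decile to 41.1% in the longest, which holds Abcc1 and Abcc5; the uptake genes lie in deciles 5 and 7 and Abcc4 in decile 8.

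Abcc4 encodes MRP4, a pump of cyclic nucleotides, prostaglandins and glutathione conjugates that is known at the blood-brain barrier and in the choroid plexus (ENSMUSG00000032849, chromosome 14, 118720104 to 118943631, minus strand). It was the least abundant of the 6, with 154 to 319 counts per library. Its level was 16.2, 10.2 and 11.1 CPM in control replicates 1, 2 and 3 and 15.1, 11.6 and 18.1 CPM in MeHg replicates 1, 2 and 3. The highest library was MeHg replicate 3, followed by control replicate 1, and the groups overlapped. The means were 12.5 ± 3.24 CPM (SD, n = 3) and 15.0 ± 3.25 CPM. The log2 fold change was 0.26 ± 0.21 (SE, 95% interval -0.22 to 0.74, adjusted p = 0.493). It was 0.50 without control replicate 1, 0.42 without MeHg replicate 2, 0.13 without control replicate 2 and 0.10 without MeHg replicate 3, and it did not pass in any of them.

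The libraries with the highest Abcc4 also had the highest levels of markers of the meninges, vessel walls and choroid plexus. The summed level of 8 mural cell and meningeal markers was 246, 199.7 and 206 CPM in control replicates 1, 2 and 3 and 283, 219 and 306 CPM in MeHg replicates 1, 2 and 3. The mean log2 CPM of the 10 choroid plexus markers was 5.61, 3.90 and 1.03 in controls and 6.11, 5.32 and 7.07 in MeHg. In Abcc4 and in both lists, MeHg replicate 3 was highest, control replicate 1 and MeHg replicate 1 came next, and MeHg replicate 2 and control replicates 2 and 3 were lowest. The summed level of 10 endothelial markers was 220 to 236 CPM in controls and 253 to 281 CPM in MeHg, and did not overlap. The part of these tissues in the Abcc4 level was not tested.

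**Figure D3:**
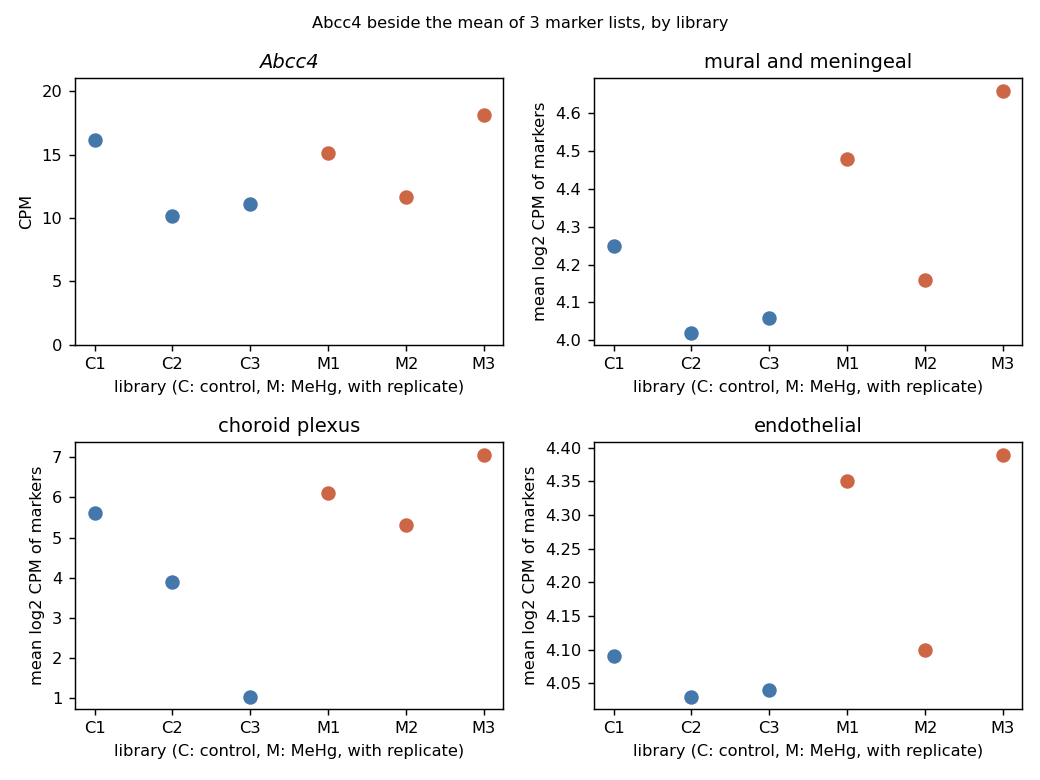
Abcc4 in CPM (top left, axis from 0) and the mean log2 CPM of the mural and meningeal, choroid plexus and endothelial marker lists (other panels, axes not from 0) in control (C) and MeHg (M) libraries 1 to 3. In Abcc4 and the mural and choroid plexus lists, M3 is highest, with C1 and M1 next.

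These short stretches of the Abcc4 promoters show the motif matches found before the starts of the transporter genes in RefSeq's windows, which run from 250 bases before to 50 bases after a gene's start (build GRCm38.p6, not the mm39 of the counts). The windows covered 4 of the 6 genes: Slc7a8, Slc3a2, Abcc5 and Abcc4, the last with 2 starts. Capitals mark the match, and each stretch is written 5′ to 3′ on the minus strand, on which Abcc4 is transcribed.
Abcc4 upstream start, antioxidant response element core, chr14:118706220-118706274: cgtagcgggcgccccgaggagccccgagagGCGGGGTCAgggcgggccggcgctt
Abcc4 upstream start, E-box, chr14:118706389-118706454: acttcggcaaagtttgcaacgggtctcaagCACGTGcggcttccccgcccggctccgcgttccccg
Abcc4 downstream start, antioxidant response element core, chr14:118676932-118676984: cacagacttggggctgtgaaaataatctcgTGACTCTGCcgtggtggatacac

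The motifs were searched on both strands. The antioxidant response element core, TGACNNNGC, is bound by NRF2, the regulator of glutathione genes, and was found in 12.4% of all windows. The E-box CACGTG, bound by MYC and related factors, was found in 7.15%. The core TGATGNAA, bound by ATF4, the factor that raises amino acid transporter genes when amino acids run short, was found in 3.97% of windows and in none of these 4 genes. A match describes letters in a window and is not evidence of binding.

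Per length, the pump genes differed more among themselves than the uptake genes. Abcc5 was at 24.2 ± 3.54 FPKM (SD, n = 3) in controls, Abcc1 at 2.59 ± 0.0162 FPKM and Abcc4 at 1.84 ± 0.481 FPKM, and the ranges over the controls of Abcc1 (2.58 to 2.61) and Abcc4 (1.49 to 2.38) did not overlap. With the deposited lengths, Abcc5 and Slc7a5 did not differ beyond their spread. The deposited gene length of Abcc1, 15092 bases, is well above the 6905 bases of its canonical GENCODE transcript, and dividing by that length gives 5.67 FPKM for Abcc1, 44.0 for Abcc5, 47.3 for Slc3a2, 24.8 for Slc7a5, 14.5 for Slc7a8 and 1.95 for Abcc4. With either length the mean of Slc3a2 was highest and that of Abcc4 lowest, but with the canonical length Abcc5 (SD 6.46) and Slc3a2 did not differ beyond their spread. With that length Abcc5 lay above Slc7a5 (SD 1.37) beyond their spread, so their order depends on the length used. Of the summed FPKM of 8 Abcc transporters (Abcc1 to Abcc6, Abcc10 and Abcc12), Abcc5 made up 69.6 to 75.1% in controls and 64.9 to 70.3% in MeHg. That sum was 30.6 to 37.5 FPKM in controls and 26.5 to 29.1 FPKM in MeHg, with every MeHg library below every control. As Abcc5 makes up most of the sum, this is not a result separate from Abcc5, which did not pass. The FPKM also carry the relatively larger library totals of MeHg, given under the processing.

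Other genes of the same transport routes were described from lists of related genes. In each of these lists in which edgeR called 0 genes, DESeq2 and limma-voom also called 0. Of 13 other partners and carriers of neutral amino acids and cystine, 8 were tested and 0 were called in either direction (5 at an unadjusted p under 0.05), with a median log2 fold change of 0.07, which was -0.01 without control replicate 2. Slc43a2, which encodes the system L carrier LAT4 that needs no heavy chain, was at 136, 128 and 151 CPM in controls and 118, 119 and 117 CPM in MeHg (-0.23 ± 0.07, adjusted p = 0.0923). All its MeHg libraries were below the controls. The glutamine carrier Slc38a2 was at -0.21 ± 0.09 (adjusted p = 0.180) and the glutamine exchanger Slc1a5 at 0.61 ± 0.25 (adjusted p = 0.183), from 2.31 CPM in controls. Slc7a10 (0.17 ± 0.08, adjusted p = 0.203) and Slc7a11 (0.27 ± 0.12, adjusted p = 0.197) were above the controls in every MeHg library, by the test short of the threshold. Slc7a9, the light chain that pairs with Slc3a1 in kidney, had 0 counts in all 6 libraries.

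Among 6 tested of 7 other Abcc genes, 1 was called lower, 0 were called higher, and the median log2 fold change was -0.04. Of all tested genes, 1.79% were called lower, and 15.5% had every MeHg library below every control. The called gene was Abcc8, which encodes the sulfonylurea receptor SUR1, a regulatory subunit of ATP-sensitive potassium channels and not an exporter. It was at 114, 104 and 138 CPM in controls and 85.1, 79.5 and 74.4 CPM in MeHg, with every MeHg library below every control (log2 fold change -0.57 ± 0.10, adjusted p = 0.0431). DESeq2 and limma-voom also called it, and without control replicate 2 it was -0.66 ± 0.10 (adjusted p = 0.0426). No gene of the whole table was called as lower without control replicate 1, control replicate 3, MeHg replicate 1 or MeHg replicate 3. The same held with the gene length offset and with limma on log2 FPKM values. The calls of Abcc8 and of the granule cell markers were thus lost in all of these settings. Abcc12 was at -0.34 ± 0.14 (adjusted p = 0.174) and Abcc9, the SUR2 subunit gene of mural cells, at -0.12 ± 0.15 (adjusted p = 0.662). Abcc2, the canalicular MRP2 of liver, had 0 to 4 counts per library and was not tested.

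Of 8 barrier efflux pumps and organic anion carriers, 0 were called (1 at an unadjusted p under 0.05). All 8 had a positive log2 fold change with a median of 0.17, where 48.9% of all tested genes had a negative one. Without control replicate 2, Abcg2 was negative. The thyroxine carrier Slco1c1 was at 34.8, 21.5 and 19.98 CPM in controls and 46.9, 32.8 and 78.8 CPM in MeHg (1.05 ± 0.31, adjusted p = 0.0925), highest in MeHg replicate 3, as were the choroid plexus markers. The part of choroid plexus content in the Slco1c1 level was not tested. The organic anion carrier Slc22a8 was at 0.39 ± 0.18 (adjusted p = 0.218) and Slco1a4 at 0.30 ± 0.17 (adjusted p = 0.307). Abcb1a and Abcg2, which encode the drug pumps P-glycoprotein and BCRP of the blood-brain barrier, were at 0.12 ± 0.12 and 0.03 ± 0.14 (adjusted p = 0.582 and 0.909). Without control replicate 2, Abcg2 was at -0.03 ± 0.16 (adjusted p = 0.940), so no direction can be given.

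Of 11 genes of glutathione synthesis and conjugate turnover, 9 were tested and 0 were called (1 at an unadjusted p under 0.05), with a median of 0.11. Gclc, the catalytic subunit of the rate-limiting enzyme of glutathione synthesis, was at 71.9, 74.9 and 78.5 CPM in controls and 68.7, 68.4 and 60.2 CPM in MeHg (-0.19 ± 0.07, adjusted p = 0.165). Its groups did not overlap. Glutathione synthetase, Gss, was at -0.23 ± 0.11 (adjusted p = 0.237), and Anpep, a surface peptidase that helps to break down glutathione conjugates to cysteine conjugates, was at 0.48 ± 0.22 (adjusted p = 0.213).

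Slc7a5, Slc3a2 and Slc7a11 are known targets of ATF4, and Abcc1, Abcc4 and Slc7a11 of NRF2, so both programmes were described. Of 12 ATF4 programme genes all were tested and 0 were called (2 at an unadjusted p under 0.05). There were 10 positive fold changes and a median of 0.09, where 48.9% of all tested genes had a negative fold change. Of the positive ones, Nupr1 was at -0.04 ± 0.19 without control replicate 2. The serine synthesis enzyme Psat1 was at 110.0, 107.6 and 108.9 CPM in controls and 125.8, 123.3 and 129.6 CPM in MeHg, higher in every MeHg library (0.21 ± 0.05, adjusted p = 0.0645). The leucine sensor Sesn2 was at 0.28 ± 0.10 (adjusted p = 0.149), Cebpb at 0.38 ± 0.21 (adjusted p = 0.313) and Atf4 itself at 0.08 ± 0.10 (adjusted p = 0.635). Of 11 NRF2 regulators and targets 10 were tested and 0 were called (3 at an unadjusted p under 0.05), with a median of 0.04. The quinone reductase Nqo1 was at 0.40 ± 0.17 (adjusted p = 0.186), G6pdx at -0.12 ± 0.07 (adjusted p = 0.298) and Nfe2l2, which encodes NRF2, at 0.02 ± 0.11 (adjusted p = 0.940). Without control replicate 2, Nfe2l2 was at -0.02 ± 0.13 (adjusted p = 0.954).

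**Figure D4:**
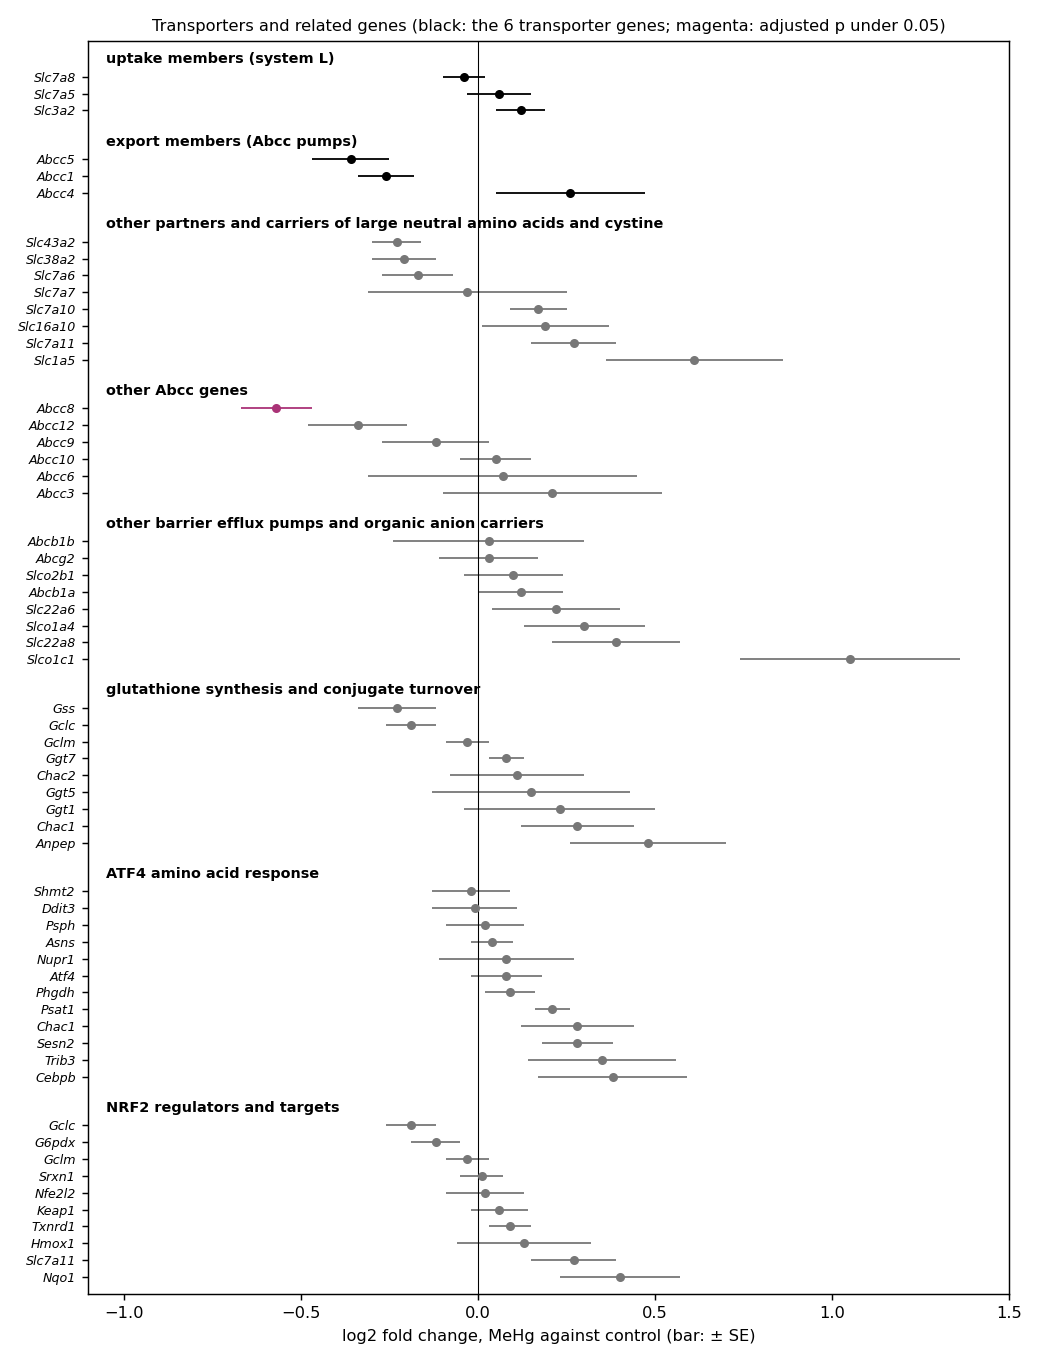
Log2 fold change of MeHg against control (horizontal axis, bars ± SE) for the 6 transporter genes (black) and the tested genes of the related lists (grey), by list. Abcc8, at -0.57, is the gene called at an adjusted p under 0.05; Gclc, Gclm, Chac1 and Slc7a11 belong to 2 lists and are drawn in both.

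The genes whose pattern over the 6 libraries was most like each transporter gene were found by the root mean square difference of log2 CPM, after centring each gene on its mean, among 10245 other genes with at least 10 CPM. Slc3a2 was nearest to Pcbp1 (0.010) and Mob3b (0.015), Slc7a8 to Coro1a (0.012) and Selenot (0.018), and Slc7a5 to C87436 (0.031) and Slc39a1 (0.035). Abcc1 was nearest to Dip2b (0.021) and Celf2 (0.022), which were at log2 fold changes of -0.26 and -0.28 and did not pass (adjusted p = 0.0686 and 0.052). Abcc5 was nearest to Cspp1 (0.043) and Fra10ac1 (0.044). Abcc4 was nearest to Hspg2 and Fbln1 (0.064 each), which encode matrix proteins of basement membranes and connective tissue. Such distances are small for steady genes: 3311 genes lay within 0.1 of Slc7a8, 1540 of Slc3a2, 1602 of Abcc1, 717 of Slc7a5, 148 of Abcc5 and 3 of Abcc4. Among the 6 genes themselves, Slc7a8 and Slc3a2 were closest (0.089) and Abcc4 and Abcc5 farthest apart (0.474), and Abcc1 and Abcc5 were 0.151 apart.

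**Figure D5:**
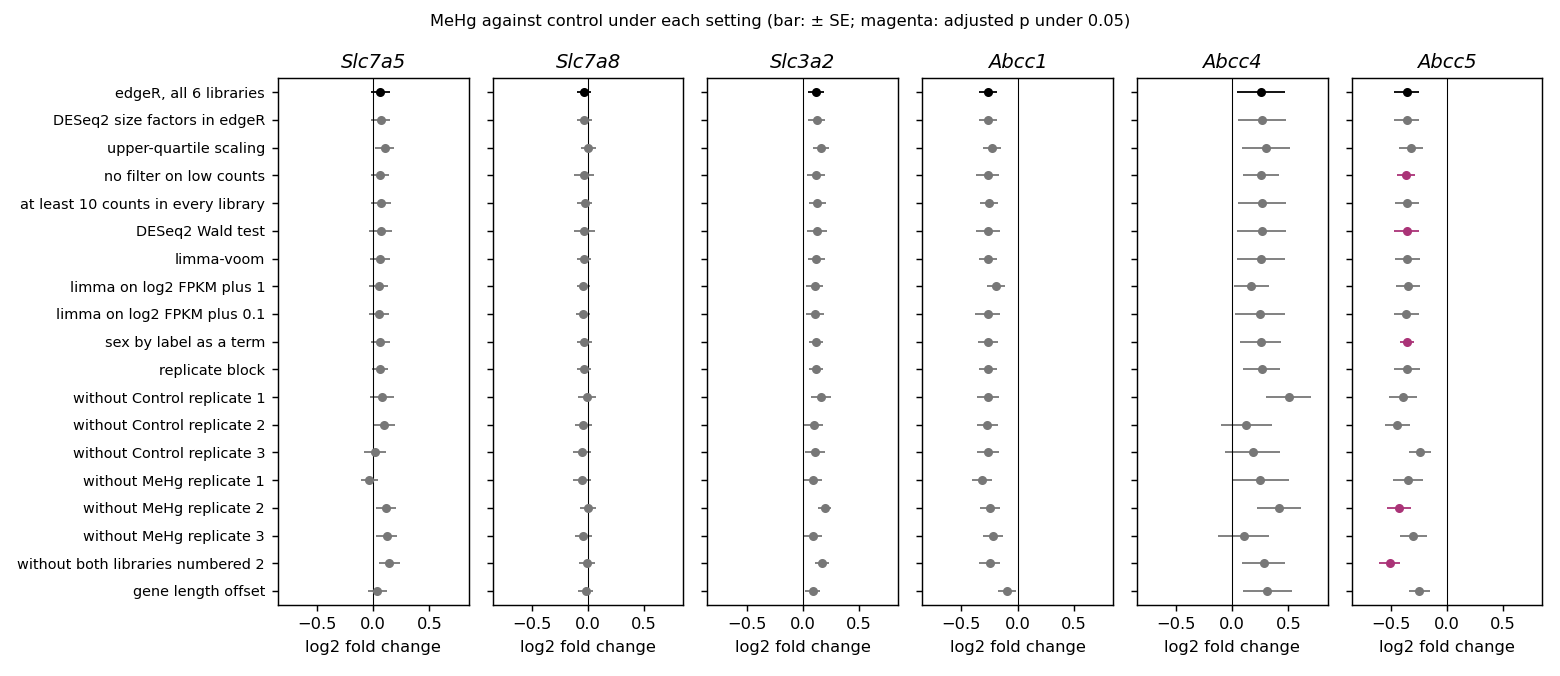
Log2 fold change of MeHg against control (horizontal axes, bars ± SE) of each transporter gene under each setting (rows); magenta marks an adjusted p under 0.05. Abcc5 is magenta in 5 of 18 alternatives, Slc7a5 runs from -0.03 to 0.14, and Slc7a8 from -0.055 to 0.0025.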

How the data were processed

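Per the labels, cerebellar RNA was read in pairs of 150 bases on an Illumina NovaSeq. Named in the submitters' processing notes are mm39 and DESeq2; the aligner, counter, annotation and use of strand are not given in the sources. The authors deposited raw counts per gene and FPKM values. The deposited FPKM equal the count divided by gene length and a library total that is 104.0 to 105.4% of the table's own total in controls and 108.1 to 109.0% in MeHg, so FPKM differences between groups carry that scale.

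Counts were filtered with filterByExpr, scaled by TMM and tested with edgeR 4.0.16 (R 4.3.3) by its quasi-likelihood method, with group as the only term and Benjamini-Hochberg adjustment over 16859 genes (called under 0.05). The SE is the absolute log2 fold change divided by the square root of F. The procedure was tested on simulated data. The members and gene lists were chosen with earlier results of these data known, and lists are described by counts and medians with no set test. Named genes are the 6 members, the called genes or up to 3 genes of smallest p of each list, 2 nearest patterns per member, and further list members as examples. Those outside this rule (among them Slc7a9, Slc7a10, Abcc2, Abcc9, Abcc12, G6pdx, Abcb1a, Abcg2, Atf4 and Nfe2l2) were named after their values were seen. No 2 libraries of a group were copies (chi-square per degree of freedom 7.85 to 19.9).

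The alternatives were DESeq2 1.42.0 and its size factors, upper-quartile scaling, other filters, limma 3.58.1 (voom, and log2 FPKM with 1 or 0.1 added), sex or replicate number as a term, leaving out libraries, a lowess offset for gene length, and a threshold of 0.10. Canonical transcript length was added after seeing the data. Gene positions are those of the deposited table.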

Additional observations from a re-analysis of the deposited data

How the results depend on the processing

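The number of transporter genes called was 0, and it was 1 with no filter on low counts, with DESeq2, with sex by label as a term and without both libraries numbered 2, in each case Abcc5 (log2 fold change -0.363, -0.359, -0.356 and -0.511). It was 2 at an adjusted p under 0.10 (Abcc1 and Abcc5), and 0 to 1 when each library was left out in turn. With 1 library left out, the log2 fold change of Abcc5 ran from -0.444 to -0.240. Slc7a5 reversed without MeHg replicate 1, and ran from -0.034 to 0.118 with 1 library left out. Slc7a8 reversed with upper-quartile scaling (0.0025) and without MeHg replicate 2, and ran from -0.055 to 0.0014 with 1 left out. The signs of Slc3a2, Abcc1, Abcc4 and Abcc5 held in all 18 alternatives.

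Over all genes 398 were called (97 higher, 301 lower). The count was 197 with upper-quartile scaling (78 higher, 119 lower), 2378 with no filter on low counts (1200 higher, 1178 lower), 1394 with DESeq2 (569 higher, 825 lower), 0 with limma on FPKM values, after adding 1 or 0.1 (3874 and 3887 at an unadjusted p under 0.05), 609 with sex by label as a term, 1723 without both libraries numbered 2, 0 with the gene length offset (3580 at an unadjusted p under 0.05) and 1653 at an adjusted p under 0.10 (637 higher, 1016 lower). It ran from 0 to 1091 with 1 library left out. The causes were not tested.

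With the replicate number as a block, 648 genes and 0 transporter genes were called. The labels name no pairing of libraries of the same number. Both libraries numbered 1 are labelled female, and both numbered 2 had the RNA of a male. Between the libraries numbered 1, 2 and 3, the correlations of deviations from the group means were 0.187, 0.346 and -0.236. Not every library correlated best with its own number.

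Abcc4, with as few as 154 counts in a library, was the member that depth limits most: counting alone gives a spread of 8.06% there, against 1.85% for Abcc5.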
